A study of Mus musculus with 12 samples.

Results

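The IκB family is described here by 6 genes, Nfkbia, Nfkbib, Nfkbie, Nfkbiz, Nfkbid and Bcl3, found by symbol among the 54532 genes of the count table. Each was present once, and all 6 were among the 14547 genes that passed the filter on low counts. RNA was sequenced from spleen eosinophils of IL-5tg_4get/C57BL/6 mice, sorted as SSChigh4get+ cells. Every group, controls included, shared this background: interleukin-5 overproduction drives the eosinophilia, and 4get is a green fluorescent reporter of interleukin-4. The cells were cultured for 4 h with an anti-Siglec-F antibody (5 µg/mL) plus interleukin-33 (IL-33, 10 ng/mL), with IL-33 alone, with the antibody alone, or with an isotype control antibody, in 3 libraries each and 12 in all. Siglec-F is an inhibitory sialic acid-binding receptor on mouse eosinophils, and IL-33 is a cytokine released by damaged cells. The sources used here give neither the age of the mice, nor whether the IL-33 group also received the isotype antibody, nor whether libraries are separate animals, so the p-values may reflect technical spread alone.

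NF-κB transcription factors are dimers held in the cytoplasm by IκB proteins. Signals such as IL-33 activate the IκB kinase, which marks the classical IκB proteins for destruction and frees the dimers to enter the nucleus. Genes switched on there include those for new IκB proteins, which end the signal. IκBα (Nfkbia), IκBβ (Nfkbib) and IκBε (Nfkbie) are the classical members. The atypical members, IκBζ (Nfkbiz), IκBNS (Nfkbid) and Bcl-3 (Bcl3), act in the nucleus, where they bind NF-κB on DNA and alter which genes it turns on or off. In the deposited table (mm10 coordinates) Nfkbia (ENSMUSG00000021025) spans chromosome 12, 55489410 to 55492647, Nfkbib (ENSMUSG00000030595) spans chromosome 7, 28758251 to 28767512, Nfkbie (ENSMUSG00000023947) spans chromosome 17, 45555703 to 45563169. Nfkbiz (ENSMUSG00000035356) spans chromosome 16, 55811375 to 55838899, Nfkbid (ENSMUSG00000036931) spans chromosome 7, 30421732 to 30428746 and Bcl3 (ENSMUSG00000053175) spans chromosome 7, 19808462 to 19822770.

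The stretch before the transcription start is shown because these genes changed with IL-33 and NF-κB binds such stretches. Sequences are from the RefSeq promoter table (GRCm38.p6, the assembly that mm10 names), which held 5 of the 6 members in 7 windows of 250 bases before and 50 after a start site. Nfkbiz had no entry. Capitals mark letters that match the κB consensus, a 10-letter motif bound by NF-κB, on either strand. The consensus was taken as GGGRNNYYCC, with R for A or G, Y for C or T and N for any letter, and a stricter form would match less. The 250 bases before the start are given 5′ to 3′ for Nfkbia (chr12:55492648-55492897, minus strand), Nfkbie (chr17:45555450-45555699, plus strand), the middle of 3 start sites of Nfkbid (chr7:30422156-30422405, plus strand) and Nfkbib (chr7:28766645-28766894, minus strand), the last as a member with no match.
Nfkbia: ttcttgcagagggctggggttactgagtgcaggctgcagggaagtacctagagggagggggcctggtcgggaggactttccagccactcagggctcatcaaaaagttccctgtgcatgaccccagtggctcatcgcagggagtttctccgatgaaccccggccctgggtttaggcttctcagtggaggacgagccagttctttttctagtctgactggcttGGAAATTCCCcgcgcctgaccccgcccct
Nfkbie: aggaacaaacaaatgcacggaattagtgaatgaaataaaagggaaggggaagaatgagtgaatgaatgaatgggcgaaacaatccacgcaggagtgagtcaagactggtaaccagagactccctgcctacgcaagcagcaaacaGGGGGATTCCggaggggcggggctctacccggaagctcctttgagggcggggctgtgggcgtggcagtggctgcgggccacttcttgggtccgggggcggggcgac
Nfkbid: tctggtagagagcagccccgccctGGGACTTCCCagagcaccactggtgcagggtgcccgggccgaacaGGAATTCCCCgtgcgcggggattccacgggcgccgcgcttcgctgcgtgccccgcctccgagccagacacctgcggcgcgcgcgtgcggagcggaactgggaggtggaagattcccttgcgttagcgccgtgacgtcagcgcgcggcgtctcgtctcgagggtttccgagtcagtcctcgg
Nfkbib: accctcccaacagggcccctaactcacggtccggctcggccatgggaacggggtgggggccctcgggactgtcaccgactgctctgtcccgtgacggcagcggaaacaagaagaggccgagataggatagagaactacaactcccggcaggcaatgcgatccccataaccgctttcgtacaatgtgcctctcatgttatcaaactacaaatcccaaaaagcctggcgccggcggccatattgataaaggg
The match in Nfkbia lay 20 to 29 bases before the start, and the match in Nfkbie 97 to 106 bases before it. Nfkbid had matches 172 to 181 and 217 to 226 bases before its middle start site, the farther one a stretch that matches the consensus read from either strand, and none at its other start sites. Bcl3 had 1 matching stretch, GGGAAGTCCC, which lay 3 to 12 bases after the start and matches the consensus read from either strand. In all, 4 of the 7 member windows held a match, against 8.46% of 32851 windows in the table. A match describes the letters and is not a measured binding site, and the counts do not show which start site was used. The Nfkbib window lies inside the deposited span of this minus-strand gene, which reaches 28767512. The bases before that end were not searched, so the lack of a match holds for the window only.

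Total counts ran from 11686603 to 17137988 per library, and the members' own counts from 447 to 13014. A pair of combined libraries differed from the rest: numbers 2 and 3 had 15555 and 29990 genes with a count, against 19138 to 24485 in the other libraries, and a ribosomal protein share of 3.45% and 3.99%, against 1.69% to 2.71%. All 6 eosinophil markers (Siglecf, Ccr3, Epx, Prg2, Il5ra and Alox15) had counts in every library, and 0 of them were called for both stimuli or for IL-33 against isotype. Their log2 fold changes lay mostly below 0: 2 of 6 were above 0 for both stimuli and 0 of 6 for IL-33, with medians of -0.36 and -0.40. Siglecf, the gene of the antibody's target, averaged 617 ± 51.4 CPM in the combined group and 698 ± 161 CPM with IL-33, against 878 ± 77.7 CPM with isotype (SD, n = 3 each). Its log2 fold changes were -0.51 and -0.33 (edgeR adjusted p = 0.0999 and 0.502). Alox15 had -0.60 and -0.47 (edgeR adjusted p = 0.0988 and 0.355). For Siglecf, Il5ra and Alox15 every combined library lay below every isotype library, as did every IL-33 library for Ccr3 and Alox15. The other markers overlapped, and the share of all tested genes that lay lower in this way is not given here. The part of these shifts in the IκB levels was not tested. In bulk libraries fewer cells of a type and less RNA per cell cannot be told apart. Libraries of 1 group differed most in the combined group, with a median SD of 0.332 in log2 CPM (counts scaled to library size), against 0.210 with IL-33, 0.176 with the antibody and 0.154 with isotype. One spread per gene was fitted for all groups, so intervals can be too narrow for the combined group and too wide for the antibody against isotype.

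By group means Nfkbia was the most abundant member per length in every group, and Nfkbiz was the least abundant only without IL-33. Single libraries differed: in combined library 2 Nfkbiz was the lowest member, at 26.5 CPM per kb against 33.1 for Nfkbib. With isotype, CPM per kilobase of gene model (CPM per kb, mean ± SD, n = 3) were 47.6 ± 3.37 for Nfkbia, 35.9 ± 5.39 for Bcl3, 29.7 ± 3.73 for Nfkbid, 20.2 ± 0.221 for Nfkbib, 12.9 ± 1.31 for Nfkbie and 7.11 ± 0.355 for Nfkbiz. Of neighbours in this order, Bcl3 and Nfkbid overlapped between libraries and the others did not. The antibody alone left the order of the means as it was, with Nfkbia at 57.0 ± 1.21 and Nfkbiz at 9.91 ± 0.854 CPM per kb, and there Nfkbib and Nfkbie overlapped.

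With IL-33 the order of the means after Nfkbia, Bcl3 and Nfkbid became Nfkbiz, Nfkbib and Nfkbie. In the combined group CPM per kb were 448 ± 118 for Nfkbia, 81.1 for Bcl3 (78.2 to 83.2), 54.8 ± 6.08 for Nfkbid, 53.9 ± 27.3 for Nfkbiz, 45.9 ± 16.0 for Nfkbib and 40.1 ± 1.32 for Nfkbie. With IL-33 alone Nfkbia stood at 356 ± 115, Bcl3 at 73.1 ± 15.5, Nfkbid at 55.3 ± 8.92 and Nfkbiz at 50.6 ± 21.6 CPM per kb. From Nfkbid downwards neighbours overlapped in both groups, and with IL-33 alone Bcl3 and Nfkbid overlapped as well.

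The 6 genes summed to 554 to 847 CPM per kb in the combined group, 409 to 720.2 with IL-33, 164 to 186 with the antibody and 141 to 165 with isotype. Nfkbia made up 57.6% to 65.0% of the sum in the combined group and 54.6% to 60.3% with IL-33, against 31.3% to 34.3% with the antibody and 29.9% to 32.1% with isotype. Bcl3 made up 9.23% to 15.01% in the combined group and 10.4% to 13.9% with IL-33, against 22.3% to 24.9% with the antibody and 22.3% to 25.3% with isotype.

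**Figure D1:**
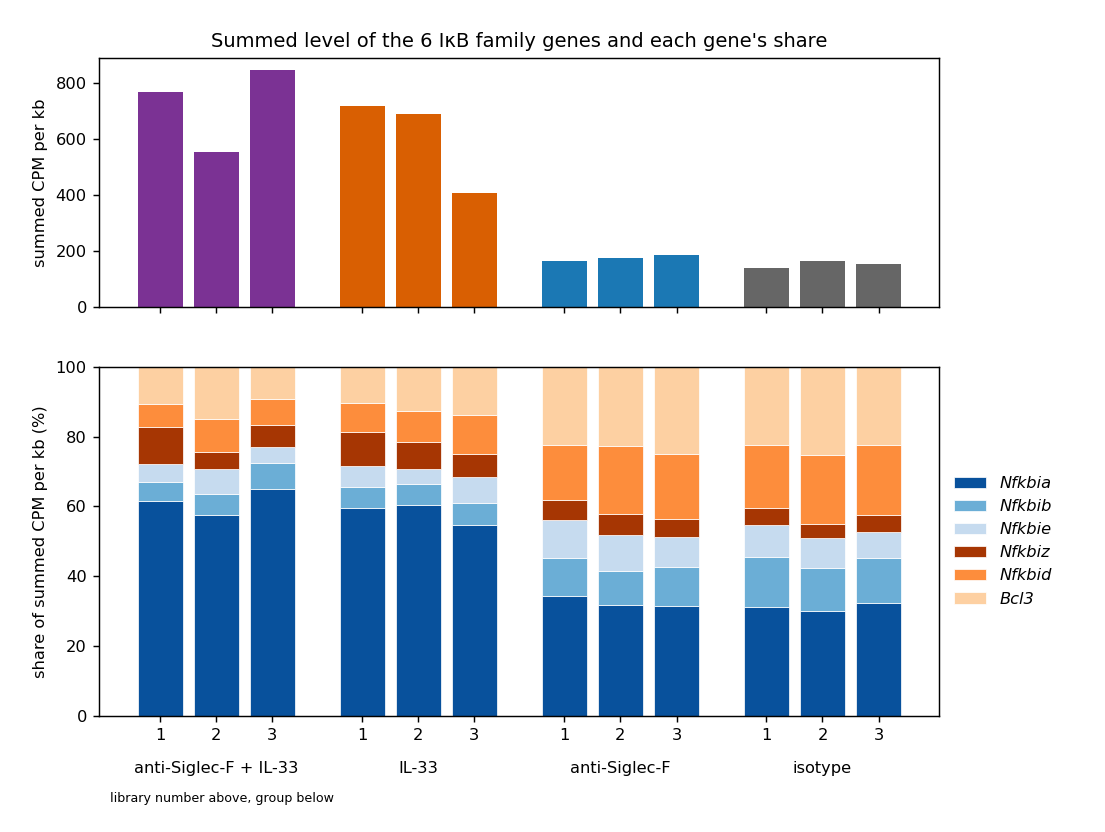
Bars give the summed level of the 6 genes in each library (CPM per kb, upper panel) and the share of each gene in that sum (%, lower panel). The 6 libraries with IL-33 sum to 409 CPM per kb or more and the 6 without it to 186 or less, and Nfkbia takes at least 54.6% in each library with IL-33.

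Most of the family rose with IL-33 by itself. Set against isotype, Nfkbia, Nfkbie, Nfkbiz, Nfkbid and Bcl3 rose, 5 of the 6 members, where 1.46% of tested genes rose and 0.749% fell. All 6 members were higher in every IL-33 library than in any isotype library, as were 11% of tested genes. The median log2 fold change was 1.23 for the members and -0.01 for all tested genes. The genes were picked with earlier results known, so these counts describe them and are no independent test. The fit had no replicate block, and the result with the block is given below for Nfkbib.

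Nfkbia encodes the classical IκB that is rebuilt fastest after a signal. It had 689, 671 and 359.7 CPM in IL-33 libraries 1, 2 and 3, against 70.3, 79.5 and 79.9 CPM in isotype libraries 1, 2 and 3. IL-33 library 3 was the lowest of its group and still lay several times above every isotype library. The log2 fold change was 2.90 (SE 0.256, edgeR adjusted p = 0.000113), the third smallest p of all tested genes. Nfkbie, whose IκBε protein is known as a delayed brake, had 134, 91.9 and 93.9 CPM with IL-33, against 39.9, 43.0 and 35.0 CPM with isotype. Its highest library was number 1 with IL-33, and the groups did not overlap. The log2 fold change was 1.44 (SE 0.164, edgeR adjusted p = 0.000401).

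Nfkbib encodes IκBβ, which is degraded more slowly than IκBα. It had 94.4, 90.4 and 56.0 CPM with IL-33, against 43.9, 44.4 and 43.4 CPM with isotype. The groups did not overlap, and library 3 was again the lowest with IL-33. The log2 fold change of 0.87 (SE 0.237) did not pass (edgeR adjusted p = 0.0799). It passed in a fit of these groups alone with the replicate block (edgeR adjusted p = 0.0115) or with no block (edgeR adjusted p = 0.0421), without IL-33 library 3 (edgeR adjusted p = 0.0150), without combined libraries 2 and 3 (edgeR adjusted p = 0.0171), without the filter on low counts (edgeR adjusted p = 0.00170), by DESeq2 (adjusted p = 0.0131) and by limma voom (adjusted p = 0.000914). It did not pass in the other 5 fits without 1 library (edgeR adjusted p = 0.210 to 0.339), with other size factors (edgeR adjusted p = 0.0756) or with the replicate block in all 12 libraries (edgeR adjusted p = 0.0925). Nfkbib overlaps Sirt2, which lies on the other strand, over 778 bases, and without a stated strand setting reads there cannot be told apart. In the same comparison Sirt2 was at 0.19 on the log2 scale (edgeR adjusted p = 0.738).

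Nfkbiz changed most among the atypical members. Its product IκBζ is needed in mouse macrophages for part of the late response, Il6 included. Nfkbiz had 353, 271 and 138 CPM with IL-33, against 34.3, 35.0 and 37.7 CPM with isotype. The IL-33 libraries were more uneven than for any other member, with a coefficient of variation of 42.7%, yet all lay above the isotype libraries. The log2 fold change was 2.83 (SE 0.371, edgeR adjusted p = 0.000921).

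Bcl3, whose product binds p50 and p52 homodimers, had 185, 217 and 141 CPM with IL-33, against 77.6, 104 and 85.4 CPM with isotype. The log2 fold change was 1.02 (SE 0.175, edgeR adjusted p = 0.00695). The gene overlaps the antisense gene Gm16174 over 2073 bases, which itself had 43 to 87 counts per library. Nfkbid, whose product IκBNS restrains some inflammatory genes in mouse macrophages, had 139.6, 144 and 106 CPM with IL-33, against 59.8, 76.1 and 73.4 CPM with isotype. The log2 fold change was 0.90 (SE 0.172, edgeR adjusted p = 0.0142), the smallest among the called members. For both genes the groups did not overlap.

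Nfkbia, Nfkbie and Nfkbiz kept their calls in each of the 6 fits that left out 1 library of these groups. Nfkbid was not called without isotype library 1 or 3 (edgeR adjusted p = 0.0843 and 0.0553) or IL-33 library 1 or 2 (edgeR adjusted p = 0.0817 and 0.0573), nor was Bcl3 without isotype library 1 (edgeR adjusted p = 0.0539), which left 3 members called there.

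**Figure D2:**
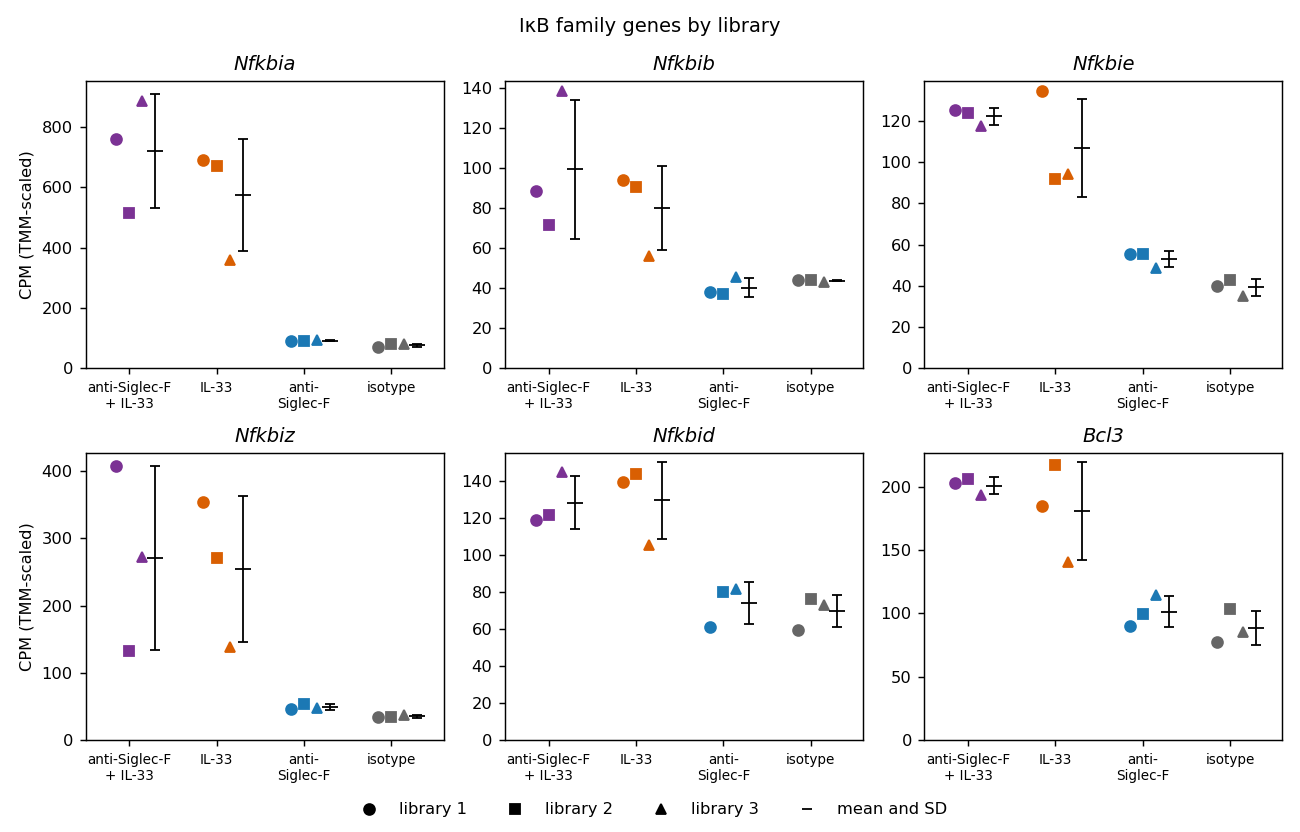
Each point is the level of 1 gene in 1 library (CPM, linear axes from 0), with the mean and SD of 3 libraries beside each group. In each panel the 6 libraries with IL-33 lie above the 6 without it, and library 3 of IL-33 and library 2 of the combined group are the lowest of their groups for Nfkbia, Nfkbib and Nfkbiz.

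With both stimuli the whole family rose over isotype. All 6 members were called higher, where 5.47% of tested genes rose and 4.41% fell, and all 6 had no overlap, as had 12% of tested genes. The median log2 fold change was 1.41 for the members and -0.05 for all tested genes. Isotype values are those given above for IL-33.

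Nfkbia had 762, 514 and 886 CPM in combined libraries 1, 2 and 3, with a log2 fold change of 3.23 (SE 0.259, edgeR adjusted p = 3.16e-05). Nfkbiz had 407, 133 and 272 CPM, with a log2 fold change of 2.92 (SE 0.373, edgeR adjusted p = 0.000473). Library 2 was the lowest for both genes, and its Nfkbiz level was close to that of IL-33 library 3. Nfkbie had 125, 124 and 117 CPM, with a log2 fold change of 1.63 (SE 0.164, edgeR adjusted p = 8.79e-05). Bcl3 had 203, 206 and 194 CPM, with a log2 fold change of 1.18 (SE 0.176, edgeR adjusted p = 0.00126). Combined libraries were thus even for these genes, with coefficients of variation of 3.29% for Nfkbie and 3.21% for Bcl3, against 50.6% for Nfkbiz and 26.3% for Nfkbia.

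Nfkbib had 88.5, 71.8 and 138 CPM in the combined libraries, with a log2 fold change of 1.18 (SE 0.238, edgeR adjusted p = 0.00800), and library 3 was the highest. Sirt2, which overlaps it, was at 0.53 on the log2 scale (edgeR adjusted p = 0.0623). Nfkbid had 119, 122 and 145 CPM, with a log2 fold change of 0.88 (SE 0.172, edgeR adjusted p = 0.00644). All 6 calls held in each of 6 fits without 1 library. Leaving out combined libraries 2 and 3 together, the lone library being assumed to vary like the other groups, kept 5 calls, with Nfkbid at 0.82 (edgeR adjusted p = 0.0596), and moved Nfkbiz to 3.56.

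The whole family also rose with IL-33 when the antibody was present. In the combined group against the antibody alone all 6 members rose, where 2.7% of tested genes rose and 1.72% fell, and all 6 had no overlap, as had 10% of tested genes. The antibody libraries 1, 2 and 3 had 90.6, 90.5 and 93.9 CPM of Nfkbia and 46.1, 54.4 and 48.7 CPM of Nfkbiz. They had 38.3, 37.2 and 45.6 CPM of Nfkbib, 61.4, 80.3 and 81.7 CPM of Nfkbid and 90.3, 99.4 and 115 CPM of Bcl3. All of these lie below the lowest combined library given above. The log2 fold changes were 2.97 (SE 0.256, edgeR adjusted p = 9.33e-05) for Nfkbia and 2.44 (SE 0.365, edgeR adjusted p = 0.00278) for Nfkbiz. They were 1.30 for Nfkbib, 1.20 for Nfkbie, 0.98 for Bcl3 and 0.79 for Nfkbid. Nfkbia, Nfkbie and Nfkbiz kept their calls in all 6 fits without 1 library, while Nfkbib, Nfkbid and Bcl3 lost theirs without antibody library 1 or 2, which left 3. Nfkbid was also not called without antibody library 3 (edgeR adjusted p = 0.0555), without combined library 3 (edgeR adjusted p = 0.0860), with only these groups (edgeR adjusted p = 0.0625) or without combined libraries 2 and 3 (edgeR adjusted p = 0.183), where Nfkbiz had a log2 fold change of 3.08.

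The antibody on top of IL-33, against IL-33 alone, moved no member past the threshold, and 0 of 6 had groups without overlap, where 6.98% of tested genes were higher with no overlap. By edgeR 0 tested genes were called and 17.4% had an unadjusted p under 0.05, none of them a member. DESeq2 called 470 genes and limma voom 0, again no member. The log2 fold changes with 95% intervals were 0.33 (-0.18 to 0.84) for Nfkbia, 0.31 (-0.19 to 0.81) for Nfkbib and 0.19 (-0.15 to 0.54) for Nfkbie. They were 0.09 (-0.65 to 0.83) for Nfkbiz, -0.01 (-0.38 to 0.35) for Nfkbid and 0.15 (-0.22 to 0.52) for Bcl3. As a fold, the interval of Nfkbid ran from 0.769 to 1.28 and that of Nfkbiz from 0.638 to 1.78. The Nfkbiz interval thus still held sizeable changes in either direction. The sign for Nfkbiz turned to -0.41 by limma voom, -0.34 without combined library 1 and -0.22 without IL-33 library 3. It had 0.71 without combined libraries 2 and 3, 0.42 without combined library 2 and 0.40 without IL-33 library 1, and was called in none of these fits.

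The antibody without IL-33, against isotype, gave no called member either. By edgeR 0 tested genes were called and 2.54% had an unadjusted p under 0.05. Of the members Nfkbie alone did (edgeR, across all genes, unadjusted p = 0.0184). DESeq2 called 12 genes and limma voom 10, no member among them. Nfkbie had 55.2, 55.4 and 48.6 CPM with the antibody, against 39.9, 43.0 and 35.0 CPM with isotype, and a log2 fold change of 0.43 (0.09 to 0.78). Nfkbia had the antibody and isotype values given above and a log2 fold change of 0.26 (-0.25 to 0.77), and for Nfkbiz it was 0.48 (-0.28 to 1.24). For these 3 genes every antibody library was above every isotype library, as for 6.73% of tested genes. Nfkbib at -0.12, Nfkbid at 0.09 and Bcl3 at 0.19 overlapped between the groups.

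Whether the antibody acted differently with IL-33 than without it was tested as an interaction, the difference of both antibody effects. No member was called. The log2 values with 95% intervals were 0.07 (-0.65 to 0.79) for Nfkbia, 0.43 (-0.28 to 1.15) for Nfkbib and -0.24 (-0.73 to 0.25) for Nfkbie. They were -0.39 (-1.44 to 0.67) for Nfkbiz, -0.11 (-0.63 to 0.41) for Nfkbid and -0.04 (-0.57 to 0.49) for Bcl3. By edgeR 0 tested genes were called and 7.91% had an unadjusted p under 0.05, none of them a member, while DESeq2 called 3 genes and limma voom 0. The comparisons share groups, so they do not support each other.

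**Figure D3:**
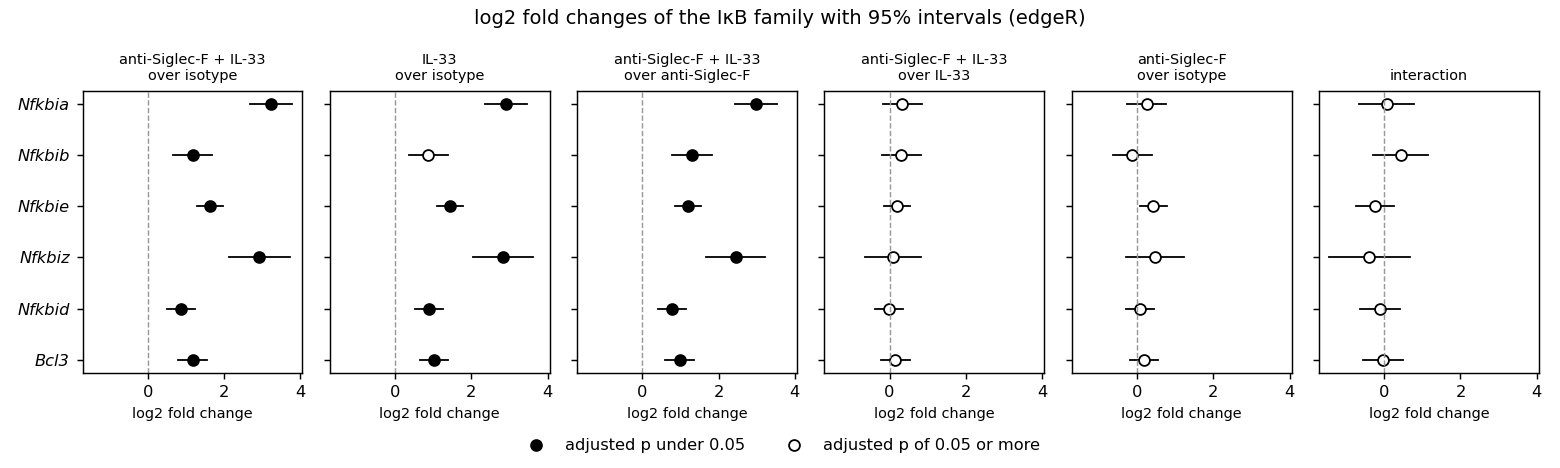
Points are log2 fold changes of the 6 genes in each comparison, lines are 95% intervals from edgeR, and filled points passed the adjusted p. Filled points occur in the 3 comparisons of a group with IL-33 against a group without it, where Nfkbia and Nfkbiz lie farthest to the right.

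Libraries given IL-33 did not vary alike for all members. In IL-33 library 3 all 6 members lay below their group's mean log2 CPM, from -0.16 for Nfkbie to -0.78 for Nfkbiz. In combined library 2 Nfkbiz was at -0.88, Nfkbia at -0.45 and Nfkbib at -0.42, while Nfkbie and Bcl3 were at 0.02 and 0.04. Il6 had 387, 145 and 723 CPM in combined libraries 1, 2 and 3 and 330.3, 216 and 79.8 CPM in IL-33 libraries 1, 2 and 3. Its lowest library in each group was the one with the lowest Nfkbiz and Nfkbia, and its highest was combined library 3, which had the most Nfkbia but not the most Nfkbiz.

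**Figure D4:**
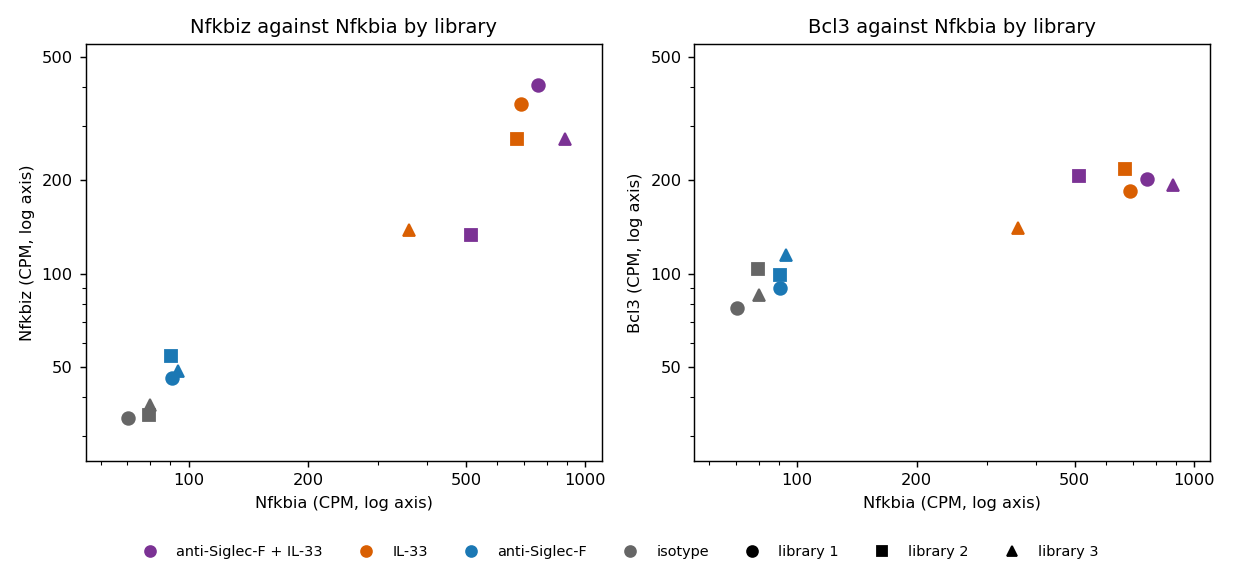
Each point is 1 library, with Nfkbia on the x axis and Nfkbiz (left) or Bcl3 (right) on the y axis, in CPM on log axes. Among the 6 libraries with IL-33, Nfkbiz runs from 133 to 407 CPM and Bcl3 from 141 to 217 CPM.

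Likeness was measured as the root-mean-square difference in log2 CPM over the 12 libraries, each gene centred on its own mean but not scaled. The size of a gene's change therefore counts as well as its pattern. The difference was 0.16 between Nfkbid and Bcl3, the smallest among members, and 0.34 between Nfkbia and Nfkbiz. It was largest between Nfkbia and Nfkbid, at 1.05, although both were higher in every library with IL-33 than in any without it. Of 8696 other genes the nearest to Nfkbia was Cd69, an early activation marker, at 0.22. The nearest to Nfkbiz were Zc3h12c at 0.29, the TNF receptor adaptor gene Traf1 at 0.31 and the receptor gene Tlr2 at 0.32. Nfkbie was nearest to Bcl2l1, which encodes the survival protein Bcl-xL, at 0.19, and Nfkbib to P2rx4, an ATP-gated channel, at 0.14. Ehd1, which acts in endosome recycling, was nearest to Bcl3 at 0.07 and to Nfkbid at 0.16. The median difference to all these other genes was larger for Nfkbia and Nfkbiz than for the remaining members. Small values for members with small changes therefore do not show a closer shared pattern. All values come from the same libraries and describe likeness only.

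Among the 5 NF-κB subunit genes, 4 rose with both stimuli and 2 with IL-33 alone, each against isotype. Of all tested genes 5.47% rose with both stimuli and 1.46% with IL-33 alone. This list and those below were picked with earlier results known, so their counts describe the genes and are no independent test. Relb, the usual partner of p52, averaged 236 ± 33.2 CPM in the combined group and 199 ± 28.4 CPM with IL-33, against 49.3 ± 4.97 CPM with isotype (SD, n = 3 each). Nfkb2, whose precursor protein can itself hold NF-κB, averaged 482 ± 131 CPM in the combined group and 446 ± 93.7 CPM with IL-33, against 103 ± 3.70 CPM with isotype. Rel rose with both stimuli (log2 fold change 1.00, edgeR adjusted p = 0.0391) and had 1.11 with IL-33 alone (edgeR adjusted p = 0.0616). Nfkb1 rose with both stimuli (log2 fold change 0.71, edgeR adjusted p = 0.0380). Rela, which encodes p65, was not called, with log2 fold changes of 0.32 and 0.34.

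Of 11 tested genes of the IκB kinase and the machinery that tags IκB for destruction, 0 rose and 0 fell with IL-33 alone by the edgeR adjusted p, with a median log2 fold change of 0.11. Of all tested genes 1.46% rose and 0.749% fell there. Chuk and Ikbkb, the catalytic subunits of the kinase, had log2 fold changes of 0.21 and -0.11 with both stimuli (edgeR adjusted p = 0.336 and 0.753). With IL-33 alone they had 0.13 and 0.11 (edgeR adjusted p = 0.801 and 0.900). Ikbkg, another gene of the kinase, had larger values, 0.77 with both stimuli and 0.62 with IL-33 alone. It was not called (edgeR adjusted p = 0.114 and 0.379).

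Of 14 other brakes on NF-κB, 5 rose with both stimuli and 5 with IL-33 alone, 4 of them in both, and 0 fell. The shares of all tested genes that rose were 5.47% and 1.46%, and 4.41% and 0.749% fell. Irak3, a kinase-like brake on receptors of the IL-1 family, had log2 fold changes of 2.76 with both stimuli and 2.70 with IL-33. Tnip1, which encodes a partner of A20, had 1.90 and 1.97, the RNase gene Zc3h12a 1.93 and 1.95, and Tnfaip3, which encodes A20, 1.40 and 1.62. Otulin rose with both stimuli (0.95) and N4bp1 with IL-33 alone (0.92), and the difference between those comparisons was not called for any listed gene. For the antibody against isotype 0 genes of these lists were called by edgeR.

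A list of 7 genes linked to IκBζ in mouse cells had 3 members that passed the filter. Il6, which encodes interleukin-6, rose by a log2 fold change of 7.49 with both stimuli (SE 0.685, edgeR adjusted p = 6.04e-05) and 6.49 with IL-33 alone (SE 0.661, edgeR adjusted p = 0.000196). Lcn2, which encodes the iron-sequestering protein lipocalin 2, had 0.69 and 0.29, and the chemokine gene Ccl17 1.73 and 0.20, none of them called. Csf2, Csf3, Edn1 and Il12b had at most 15 counts in any library and were not tested.

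The summed level of 7 monocyte and macrophage markers was 1056 to 1466 CPM in the combined group, 889 to 1182 with IL-33, 617 to 818 with the antibody and 539 to 617 with isotype. Csf1r made up most of this sum, with means of 1021 CPM in the combined group and 844 with IL-33. It averaged 623 CPM with the antibody and 433 with isotype. The sum moved with the IκB genes, but not all markers did. Against isotype 4 of 7 had log2 fold changes above 0 for both stimuli and 3 of 7 for IL-33. The part of these markers in the IκB levels was not tested. The called markers were 2 of 7, Csf1r and Spic, with log2 fold changes of 1.24 and 3.92 for both stimuli and 0.96 and 3.65 for IL-33 against isotype. The list's median was 0.38 for both stimuli and -0.50 for IL-33, and C1qa and C1qb, complement genes of resident macrophages, had 2 to 42 counts in any library. T cell and ILC2 markers summed to 22.6 to 27.2 CPM in the combined group, 20.9 to 74.5 with IL-33, 18.8 to 29.9 with the antibody and 21.0 to 36.2 with isotype. B and plasma cell markers had more, with 210 to 368 CPM in the combined group and 225 to 524 with IL-33. They had 234 to 335 CPM with the antibody and 263 to 441 with isotype. Neutrophil markers summed to 26.2 to 68.0 CPM in the combined group and 24.6 to 66.5 with IL-33. Those sums were 39.3 to 92.8 CPM with the antibody and 50.8 to 82.0 with isotype. Erythroid markers summed to 13.7 to 27.7 CPM in the combined group, 9.08 to 17.2 with IL-33, 8.34 to 13.2 with the antibody and 4.55 to 15.8 with isotype. In both comparisons of IL-33 with isotype, with and without the antibody, all 4 had log2 fold changes above 0, with a median of 1.31 for both stimuli and 0.28 for IL-33, and Hbb-bs, a globin gene, had 1.77 for both stimuli (edgeR adjusted p = 0.114). Dendritic cell markers summed to 2.02 to 7.97 CPM in the combined group, 5.03 to 12.04 with IL-33, 3.27 to 5.70 with the antibody and 2.59 to 6.42 with isotype. The median log2 fold change of the 3 tested was 0.25 for both stimuli and 0.85 for IL-33. Basophil and mast cell markers summed to 4.31 to 10.6 CPM in the combined group, 5.93 to 11.4 with IL-33, 5.22 to 7.15 with the antibody and 6.19 to 8.64 with isotype. Against isotype 2 of 4 had log2 fold changes above 0 for both stimuli and 2 of 4 for IL-33, where Ms4a2 was highest at 0.93 (edgeR adjusted p = 0.427). The part of T cell, B cell, neutrophil, basophil and mast cell, erythroid and dendritic cell RNA in the IκB levels was not tested. In these comparisons 0 markers of neutrophils, basophils and mast cells, T cells, B cells, erythroid cells and dendritic cells were called by edgeR.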

How the data were processed

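Per the submitters' processing notes the genome build was mm10 and the tools included fastp, STAR 2.6.1d, featureCounts 1.5.0-p3, DESeq2 and FastQC 0.11.8. No source used here names the annotation release or whether counting used strand. The authors deposited raw counts per gene with gene lengths in bases, and a second table of normalized counts, in which the signal is each count over a size factor of its library. From these values 100% of nonzero entries came back as whole reads (relative tolerance 1e-06). They equalled the raw counts, so the test on them, added after the data were seen, called 322 genes for IL-33, 1437 for both stimuli and 0 for the antibody, each against isotype, as did the raw counts.

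Members and gene lists were chosen with earlier results of these data known. Counts were tested with edgeR 4.0.16 (R 4.3.3) by quasi-likelihood, with TMM scaling, filterByExpr, all 12 libraries and no replicate block. P-values were Benjamini-Hochberg adjusted over 14547 genes within each of 6 comparisons and called under 0.05. DESeq2 1.42.0, limma 3.58.1, other scaling, no filter, fewer libraries and the block were alternatives. The SE is the log2 fold change over the root of F. CPM used TMM factors, and CPM per kb the deposited length. The fits were tested on simulated data. All members are named. Lists name up to 4 genes per comparison, called ones with the largest change first, and further list genes were picked after their values were seen. The result of the kinase list for both stimuli is not reported here in full. Likeness was limited to genes averaging 5 CPM or more, with 0.5 CPM added before the logarithm.

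Equal replicate numbers were to count as pairs where every correlation of deviations from group means exceeded 0.1. That held for IL-33 against isotype (0.27, 0.29 and 0.19), from the data and not from a label, and for no other comparison. The main fit still had no block, so its calls for IL-33 against isotype leave this pairing out. A fit of these groups with the block is given as an alternative, and Nfkbib passed there.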

Additional observations from a re-analysis of the deposited data

How the results depend on the processing

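With all libraries, or without combined libraries 2 and 3, the members called stayed at 5 or 6 in the comparisons of IL-33 with its absence and at 0 in the others. Without 1 library they numbered 3 to 6 for IL-33 against isotype, 3 to 6 for both stimuli against the antibody, 6 to 6 for both stimuli against isotype and 0 elsewhere. No called log2 fold change changed sign in these fits. Some uncalled ones did, and the cause was not tested. For both stimuli against IL-33, Nfkbiz had -0.41 by limma voom and -0.34 to 0.42 without 1 library, and 0.71 without combined libraries 2 and 3, Nfkbid 0.0025 with the replicate block in a fit of these groups and -0.16 to 0.067 without 1 library, Nfkbib -0.0054 to 0.50 and Bcl3 -0.017 to 0.30. For the interaction, Nfkbia had -0.12 by limma voom and -0.21 to 0.26 without 1 library, Bcl3 -0.22 to 0.10, and without combined libraries 2 and 3 Nfkbiz had 0.23 and Bcl3 0.012. Outside IL-33 against isotype the libraries share only a number, and the block in the 12-library fit changed no member's call. Counts over all genes moved more. For IL-33 against isotype 322 became 806 with DESeq2, 2089 with limma voom, 683 without the filter, 1235 with the block in a fit of these groups, 688 without combined libraries 2 and 3 and 116 to 488 without 1 library. For both stimuli against isotype 1437 became 2404 with DESeq2, 738 with only these groups, 916 with the block added, 651 without combined libraries 2 and 3 and 515 to 2916 without 1 library. For both stimuli against the antibody 643 became 1627 with DESeq2, 424 with limma voom, 1600 without the filter, 242 with only these groups, 350 with the block added, 220 without combined libraries 2 and 3 and 124 to 2839 without 1 library. Without the filter the counts of 0 became 70 for the antibody, 786 for both stimuli against IL-33 and 86 for the interaction. For the antibody 20 genes were called with only these groups, 50 with the block added and 1 without combined libraries 2 and 3. Without combined library 1, 2116 genes were called for both stimuli against IL-33 and 4 for the interaction. In plain CPM Bcl3 led with isotype and with the antibody, and Nfkbiz came second after Nfkbia with IL-33.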

Other observations

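The balance of Nfkbiz to Nfkbia within a library, as log2 of the ratio of their CPM, was -0.91, -1.95 and -1.71 in combined libraries 1, 2 and 3 and -0.97, -1.31 and -1.38 with IL-33. It was -0.98, -0.73 and -0.95 with the antibody and -1.03, -1.18 and -1.08 with isotype. Every antibody library was above every isotype library, and combined libraries lay on both sides of the IL-33 libraries. No test was run on this ratio.

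The classical members took 70.9% to 77.1% of the family's CPM per kb in the combined group, 68.4% to 71.6% with IL-33, 51.2% to 56.2% with the antibody and 50.8% to 54.7% with isotype. Among them Nfkbib took 5.31% to 7.54% in the combined group and 6.03% to 6.31% with IL-33, against 9.70% to 11.3% with the antibody and 12.4% to 14.4% with isotype.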
